A study of Homo sapiens with 5 samples.

Results

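The comparison described here is the early response of C4-2B prostate cancer cells to BR-DIM, that is, the array of cells treated for 6 h set against the array of control cells. It uses 2 of the 5 arrays of the study, 1 for each condition, which were taken by sample label. Among 19775 genes with a probe set of their own, 13020 were measured on these 2 arrays. Of these, 372 genes had at least 2-fold higher signal after BR-DIM for 6 h and 105 had at least 2-fold lower signal. Among the genes furthest above control were targets of the aryl hydrocarbon receptor (CYP1A1, at least 12-fold, and CYP1B1, 5.58-fold) and genes of the ATF4 stress program (CHAC1, at least 8.74-fold, DDIT4, 8.51-fold, and DDIT3, 7.88-fold). Among the lower genes were the arginyl-tRNA synthetase RARS1, the cochaperones DNAJA1 and DNAJB1, TXNIP and AKT1.

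C4-2B is a derivative of the LNCaP line that metastasizes to bone, and it was grown here in RPMI medium with serum. BR-DIM, written B-DIM in the sample labels, is a formulation of 3,3'-diindolylmethane with enhanced bioavailability. It was given at 25 µM for 6 h, and the control received the DMSO vehicle alone for a time that the sources used here do not give. The other arrays were of BR-DIM at 25 µM for 48 h, isoflavone (a soy preparation called G2535) at 25 µM for 6 h and isoflavone for 72 h, and they are cited only beside the 6 h values. All 5 arrays are labelled as C4-2B, and the labels name no other cell type in the cultures. The study asked which signals BR-DIM and isoflavone alter in prostate cancer cells that shape their bone surroundings. With 1 array per condition there is no replicate, no test could be made, and each value describes these arrays. BR-DIM treatment also cannot be told apart from any difference in culture time or handling between the 2 dishes.

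Diindolylmethane is a known ligand of the aryl hydrocarbon receptor (AhR), a transcription factor of the cytosol that moves to the nucleus on binding a ligand, pairs with ARNT and induces the CYP1 family of cytochrome P450 enzymes. ATF4 is a leucine zipper (bZIP) transcription factor whose translation increases when a kinase phosphorylates the initiation factor eIF2alpha, as happens on amino acid shortage, misfolded protein in the endoplasmic reticulum (ER), lack of heme or double-stranded RNA. With partners of the C/EBP family it induces other bZIP factors and genes that take up, make and charge amino acids. Prostate cells of the luminal type make secreted kallikreins such as KLK3, the prostate-specific antigen.

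Signals are linear intensities. The floor was set at 97.1, the median of all signals, lower signals were raised to it, and a gene counted as measured if either array exceeded it. A ratio is a bound where 1 signal was at or below the floor, and is then written as "at least". The median signal was 109 on the BR-DIM 6 h array and lay between 89.3 and 96.1 on the other 4 arrays, and 52.6% of probe sets exceeded the floor on the BR-DIM 6 h array, against 49.5% on the control array. All 8 luminal markers with a probe set exceeded the floor on both arrays, with summed signals of 12094 after BR-DIM for 6 h and 12788 in control, and none of the 4 basal markers did. The macrophage and osteoclast markers exceeded the floor for 1 of 8 genes on each of the 2 arrays, and the osteoblast and stromal markers for 5 of 9 genes on BR-DIM 6 h and 2 of 9 in control. Another 2 arrays stood apart for a luminal line: the luminal markers summed to 2468 after 48 h of BR-DIM and to 1955 after 6 h of isoflavone, against 11413 after 72 h of isoflavone. KLK3 had BR-DIM signals of 3424 at 6 h and 14.6 at 48 h, isoflavone signals of 269.5 at 6 h and 1545 at 72 h, and 5096 in control. TMPRSS2, a protease gene driven by androgen, had 252 on BR-DIM 6 h, 10.3 after 48 h of BR-DIM and 5.3 after 6 h of isoflavone, both below the floor, and 339 in control. In RNA from whole cultures, fewer cells of a type and less RNA per cell cannot be told apart. In these markers the libraries labelled BR-DIM 48 h and isoflavone 6 h do not look like the other 3 arrays of the line, and the source of their RNA was not tested. The part of these marker levels in any difference between those arrays and BR-DIM 6 h was not tested. The ratio of BR-DIM 6 h to control uses neither array, though the floor and the choice of the brightest probe set draw on all 5.

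The background of the comparison is the share of all measured genes past 2-fold, 2.86% higher and 0.806% lower. The remaining 12543 genes (96.3%) lay within 2-fold. The median log2 ratio of all genes was 0.07, and 57.2% lay above 0. In 99 of the 372 higher genes the control signal was at the floor, and in 24 of the 105 lower genes the BR-DIM 6 h signal was. Past 3-fold there were 35 higher and 9 lower genes, and past 4-fold 13 higher and 1 lower. The share past 2-fold depended on signal: among 2741 genes with a geometric mean signal of 97.1 to 194.2, 5.73% were higher and 1.42% lower, while among 1483 genes at 3884 or more, 7 (0.472%) were higher and 4 (0.27%) lower. A 2-fold difference of a bright gene was therefore less common on these arrays than one of a dim gene, and the named genes include both kinds.

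**Figure D1:**
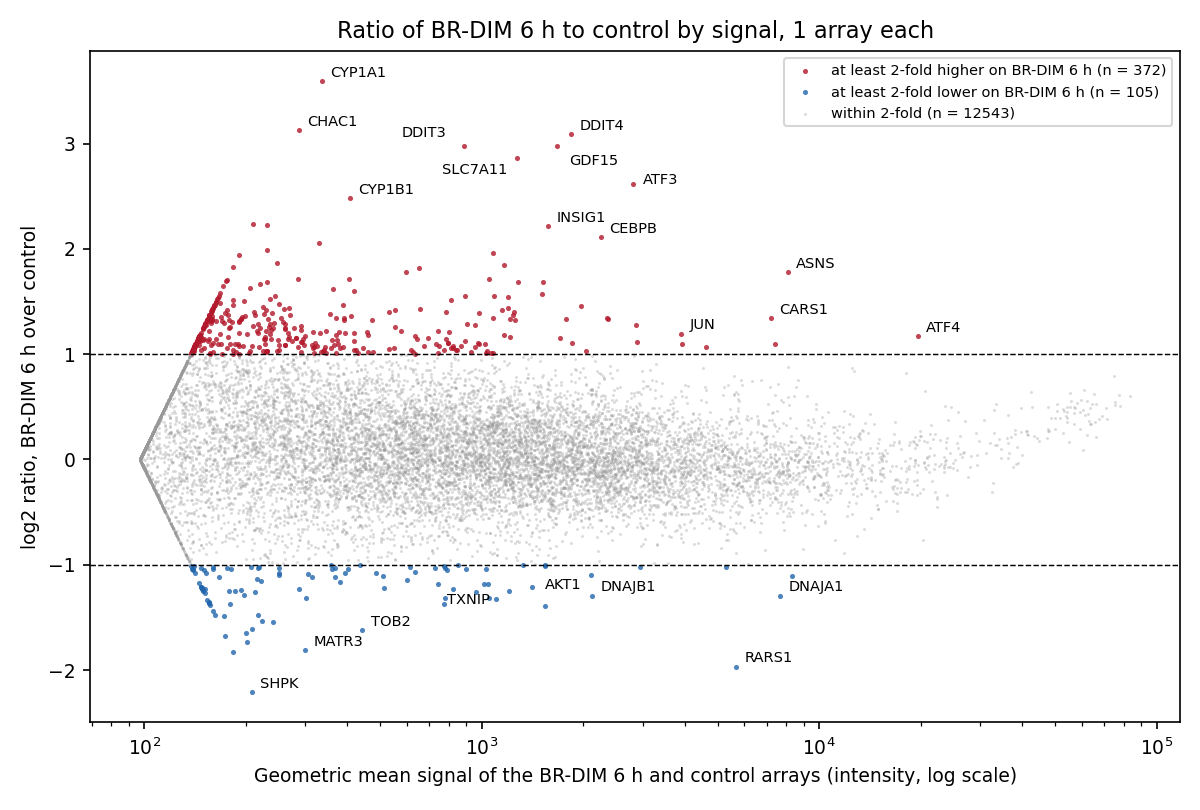
The horizontal axis is the geometric mean signal of the BR-DIM 6 h and control arrays on a log scale and the vertical axis the log2 ratio of BR-DIM 6 h over control, with a point for each of 13020 measured genes. The 372 higher genes (red) outnumber the 105 lower genes (blue), most lie at low signal, and the straight edges at left are genes with a signal at the floor.

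CYP1A1, a P450 enzyme that oxidizes aromatic hydrocarbons and the classical AhR target, had BR-DIM signals of 1170.0 at 6 h and 166 at 48 h, isoflavone signals of 83.7 at 6 h and 134 at 72 h, and 88.9 in control, a log2 ratio of at least 3.59. BR-DIM 6 h was the one array with a signal far above the floor, and the control was below it. CYP1B1, which also hydroxylates estrogens, gave BR-DIM signals of 960.5 at 6 h and 1048 at 48 h, isoflavone signals of 150.1 at 6 h and 118 at 72 h, and 172 in control (log2 ratio 2.48). Both BR-DIM arrays were high for this gene, both isoflavone arrays lay below control, and its other measured probe sets gave log2 ratios of 1.74 and 1.62. CYP1A2, a P450 of the liver, had 363 on BR-DIM 6 h and 117 in control (log2 ratio 1.63). This value rests on 1 probe set ending in _x_at. The gene's other probe set was below the floor on both arrays, at 6.4 on BR-DIM 6 h and 17.4 in control. TIPARP encodes an ADP-ribosyltransferase that restrains AhR, and it had BR-DIM signals of 3267 at 6 h and 4138 at 48 h, isoflavone signals of 1779 at 6 h and 1192 at 72 h, and 1188 in control (log2 ratio 1.46). Its signal was highest on the BR-DIM arrays. These 4 were the called genes of the 8 measured AhR targets, none of the 8 was lower, and the median log2 ratio of the list was 1.15. AHRR, the AhR repressor, was within 2-fold at 888 on BR-DIM 6 h and 788 in control. NQO1, a quinone reductase also induced through NRF2, was at 866 on BR-DIM 6 h and 919.6 in control. The receptor itself, AHR, had a lower signal of 223 on BR-DIM 6 h against 365 in control, within 2-fold (log2 ratio -0.71). Of the 6 measured members of the receptor's own pathway none passed 2-fold, and ARNT had 516 on BR-DIM 6 h and 530.5 in control.

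Of the 14 bZIP stress factors measured, 7 were at least 2-fold higher and none lower, with a median log2 ratio of 0.85. ATF4 had BR-DIM signals of 29417 at 6 h and 33336 at 48 h, isoflavone signals of 10250.5 at 6 h and 31622 at 72 h, and 13046 in control, a log2 ratio of 1.17. It was among the brightest of the higher genes, and isoflavone 6 h was the treated array below control. DDIT3, the factor CHOP of ER stress and amino acid shortage, had BR-DIM signals of 2484 at 6 h and 2068 at 48 h, isoflavone signals of 327 at 6 h and 2231 at 72 h, and 315 in control (log2 ratio 2.98). Isoflavone 6 h lay close to control for this gene and the other 3 treated arrays lay well above it. ATF3, a stress-induced repressor and activator of the same family, had BR-DIM signals of 6934 at 6 h and 10704 at 48 h, isoflavone signals of 3366 at 6 h and 6023 at 72 h, and 1134 in control (log2 ratio 2.61). All 4 treated arrays were above control for ATF3, and its second brightest probe set gave 2.72. CEBPB, a C/EBP factor that pairs with ATF4, had 4674 on BR-DIM 6 h and 1083 in control (log2 ratio 2.11), and CEBPG, a smaller C/EBP factor, had 3755 on BR-DIM 6 h and 1493 in control (1.33, with 1.37 by its other probe set). JDP2, which dimerizes with JUN, had 500.1 on BR-DIM 6 h against 107 in control (2.23), although its second probe set gave 0.23. XBP1, the factor of the unfolded protein response, had 1888 on BR-DIM 6 h and 704 in control (1.42), and its dimmer probe set gave 0.31. These arrays cannot show whether the XBP1 transcript was spliced.

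The kinases that phosphorylate eIF2alpha were not called at the transcript level. None of the 8 genes of the eIF2alpha kinase and phosphatase list passed 2-fold, and their median was 0.05. EIF2AK3, the ER kinase PERK, had 869 on BR-DIM 6 h and 625 in control (log2 ratio 0.48). PPP1R15A, the stress-induced phosphatase subunit GADD34, had 389 on BR-DIM 6 h and 276 in control (0.49). EIF2AK4, the kinase GCN2 that senses uncharged tRNA, had 489 on BR-DIM 6 h and 475 in control (0.04). Transcript levels do not report kinase activity.

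Among the genes listed as stress outputs of ATF4 and its partners, 10 of 13 measured were at least 2-fold higher and none lower. Their median log2 ratio was 1.54 against 0.07 for all genes. This list, like the others, was chosen with earlier results of these data known, so these values describe the list. CHAC1, a glutathione-degrading enzyme, had BR-DIM signals of 849 at 6 h and 451 at 48 h, isoflavone signals of 133.4 at 6 h and 491 at 72 h, and 68.5 in control, a log2 ratio of at least 3.13. GDF15, a secreted stress cytokine of the TGF-beta family, had BR-DIM signals of 4695 at 6 h and 1031 at 48 h, isoflavone signals of 217 at 6 h and 4051 at 72 h, and 596 in control (log2 ratio 2.98). Both genes were highest on BR-DIM 6 h, and for GDF15 isoflavone 6 h lay below control. NUPR1, a small stress-induced chromatin protein, had BR-DIM signals of 2131 at 6 h and 235 at 48 h, isoflavone signals of 112 at 6 h and 1822 at 72 h, and 549 in control (1.96). The NUPR1 signal on BR-DIM 48 h and isoflavone 6 h was below control, and these are the arrays low in luminal markers. STC2, a secreted glycoprotein, had 1227 on BR-DIM 6 h and 348 in control (1.82). CTH, the enzyme that makes cysteine from cystathionine, had 2212 on BR-DIM 6 h and 614 in control (1.85), and both its probe sets were past 2-fold. TRIB3, a pseudokinase that binds AKT, had 1985 on BR-DIM 6 h and 793 in control (1.32). SLFN5, VLDLR, PCK2 and HERPUD1 completed the 10, with log2 ratios of 1.60, 1.46, 1.54 and 1.33. PCK2 is the mitochondrial phosphoenolpyruvate carboxykinase, VLDLR a lipoprotein receptor and HERPUD1 a protein of ER-associated degradation. FGF21, a secreted hormone, stayed under 2-fold once floored, with 179 on BR-DIM 6 h and 62.3 in control, below the floor, and CBS, the enzyme before CTH in the same pathway, had 2622 on BR-DIM 6 h and 2283 in control.

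**Figure D2:**
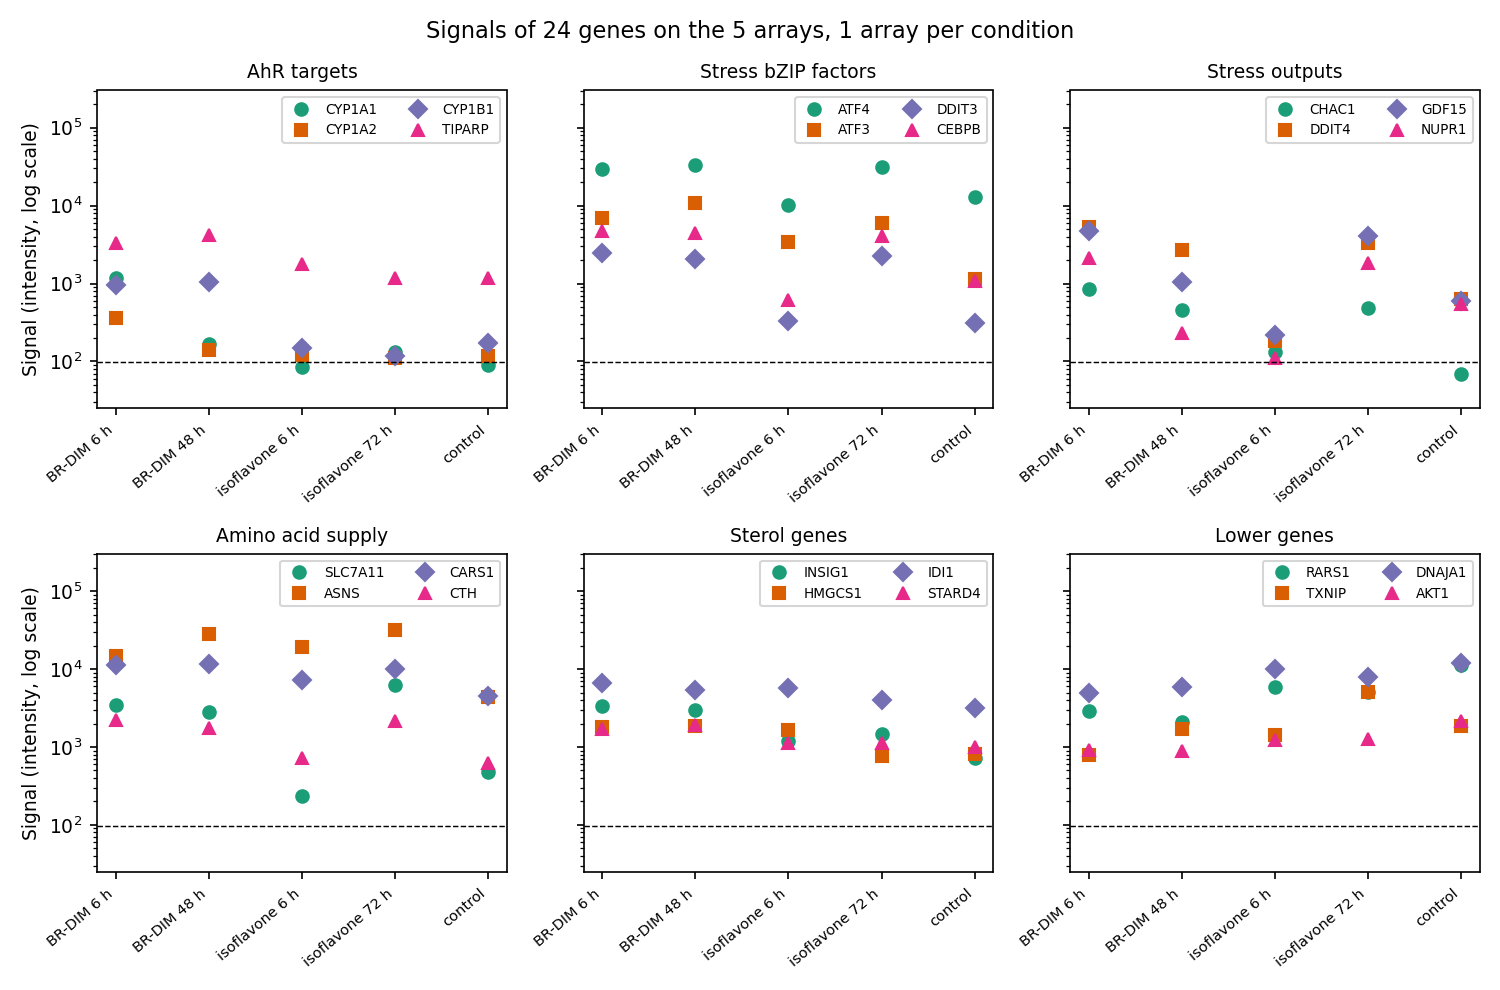
Signals (linear intensity on a log axis) of 24 genes in 6 groups are shown for BR-DIM (6 h, then 48 h), isoflavone (6 h, then 72 h) and control, with 1 array per condition and the floor of 97.1 dashed. CYP1A1 is far above the floor on BR-DIM 6 h alone. Of the stress bZIP factors, ATF4, DDIT3 and CEBPB are high on 3 treated arrays and ATF3 is above control on all 4. DNAJA1 and RARS1 are lower on all 4 treated arrays than on control.

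ATF4 and C/EBP factors bind a composite element whose core is written here as TGATGNAA. The element was looked for on both strands in promoter windows of RefSeq on GRCh38.p14, from 250 bases before to 50 after each gene's start. The windows of ATF3, CHAC1, ASNS and CARS1, which are among the genes furthest above control in their lists, are shown to let the matches be read, with the match in capitals and 20 bases on each side, written 5′ to 3′ on the strand of the gene:
ATF3: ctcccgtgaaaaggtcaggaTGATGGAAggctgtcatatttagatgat
CHAC1: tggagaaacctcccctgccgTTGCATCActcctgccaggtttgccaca
ASNS: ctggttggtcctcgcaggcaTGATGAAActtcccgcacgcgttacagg
CARS1: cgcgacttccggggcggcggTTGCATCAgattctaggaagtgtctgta
The stretches lie at chr1:212565196-212565243 (ATF3, plus strand), chr15:40953242-40953289 (CHAC1, plus strand), chr7:97872449-97872496 (ASNS, minus strand) and chr11:3057398-3057445 (CARS1, minus strand). ATF3 and ASNS carry the core on the strand of the gene, and in CHAC1 and CARS1 the capitals are its reverse complement. The first base of the match lay 191 bases before the start in ATF3, 209 before in CHAC1, 68 before in ASNS and 2 before in CARS1. Over all 27305 promoters 3.67% held the core, and over the 10599 measured genes with a promoter 1.82% did. It was found in 14 of 292 higher genes with a promoter (4.79%) and 1 of 82 lower genes (1.22%). In the 7 ATF4-linked lists together (bZIP factors, stress outputs, serine, asparagine and proline synthesis, transporters, cytosolic synthetases and mTORC1 brakes) 8 of 22 higher genes with a promoter held it, as did 8 of 47 that were not called. The other higher ones were HERPUD1, SLC3A2, SLC7A1 and AARS1, and those not called included TARS1, IARS1, NARS1 and FGF21. The lists were partly compiled from known ATF4 targets, so the share within them is a description of the lists. The core of the AhR response element, TNGCGTG, was present in 5.51% of all promoters, 9.25% of those of higher genes, 9.76% of those of lower genes and 7.36% of those of all measured genes, and in none of the 3 higher AhR targets with a promoter window, while AHRR, NQO1 and NFE2L2, within 2-fold, held it. A match is a string of letters in this window and carries no evidence of binding.

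Of 18 amino acid transporters, 4 were at least 2-fold higher and none lower, with a median of 0.61 and 14 above 0. SLC7A11, the cystine transporter of system xc-, had BR-DIM signals of 3446 at 6 h and 2812 at 48 h, isoflavone signals of 235 at 6 h and 6297 at 72 h, and 473 in control (log2 ratio 2.87), and its other probe sets gave 2.64 and 1.23. It was high on 3 treated arrays and below control on isoflavone 6 h. Its heavy chain SLC3A2 had 1975 on BR-DIM 6 h and 729 in control (1.44). The arginine and lysine transporter SLC7A1 had 10805 on BR-DIM 6 h and 5038 in control (1.10), with 1.09, 0.60, -0.28 and -0.60 by its other probe sets. SLC3A1, a related heavy chain for cystine uptake in kidney, had 314 on BR-DIM 6 h with control below the floor, a log2 ratio of at least 1.69. The neutral amino acid carriers SLC1A4 (0.99), SLC38A2 (0.84) and SLC38A1 (0.71) stayed under 2-fold by their brightest probe sets. The other probe sets of SLC1A4 gave 1.58 and at least 1.07, past 2-fold, and 0.52 and 0.52, within it.

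ASNS, asparagine synthetase and a reference target of ATF4, had BR-DIM signals of 14932 at 6 h and 28562 at 48 h, isoflavone signals of 19146 at 6 h and 31413 at 72 h, and 4353 in control (log2 ratio 1.78). All 4 treated arrays were above control, and BR-DIM 6 h was the lowest of the 4. Of the 9 genes of asparagine and proline synthesis, ASNS was the 1 higher gene and PYCR3, a pyrroline-5-carboxylate reductase, the 1 lower gene, at 173 on BR-DIM 6 h against 365 in control (-1.08). Of 9 genes of serine and one-carbon synthesis, PSPH, the last enzyme of serine synthesis, was called at 956 on BR-DIM 6 h and 433 in control (1.14), and its second probe set gave -0.04. The other enzymes of that route, PHGDH (0.56) and PSAT1 (0.71), and the mitochondrial folate enzyme MTHFD2 (0.60) were higher by less than 2-fold. These are values of the brightest probe sets, and the second probe set of PSAT1 was past 2-fold (1.13).

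Cytosolic aminoacyl-tRNA synthetases, which charge tRNA with amino acids, split. Of 17 measured, 2 were at least 2-fold higher, 1 was lower, 12 had a log2 ratio above 0, and the median was 0.33. CARS1, for cysteine, had BR-DIM signals of 11439.5 at 6 h and 11577 at 48 h, isoflavone signals of 7176 at 6 h and 10094 at 72 h, and 4507 in control (1.34, and 1.49 by the second probe set). AARS1, for alanine, had 5740.0 on BR-DIM 6 h and 2678 in control (1.10). GARS1, for glycine, lay just under the threshold with 11758 on BR-DIM 6 h and 5883 in control. TARS1 (0.75) and SARS1 (0.69), for threonine and serine, were also within 2-fold by their brightest probe sets. A much dimmer probe set of TARS1 gave at least 1.56. RARS1, for arginine, went the other way: it had BR-DIM signals of 2870.5 at 6 h and 2080.2 at 48 h, isoflavone signals of 5819 at 6 h and 5121 at 72 h, and 11221 in control, a log2 ratio of -1.97. The control was the highest of the 5 arrays for RARS1, which is measured by 1 probe set here, so no other probe set of the gene could be compared. None of the 15 mitochondrial synthetases passed 2-fold, and their median was -0.14.

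**Figure D3:**
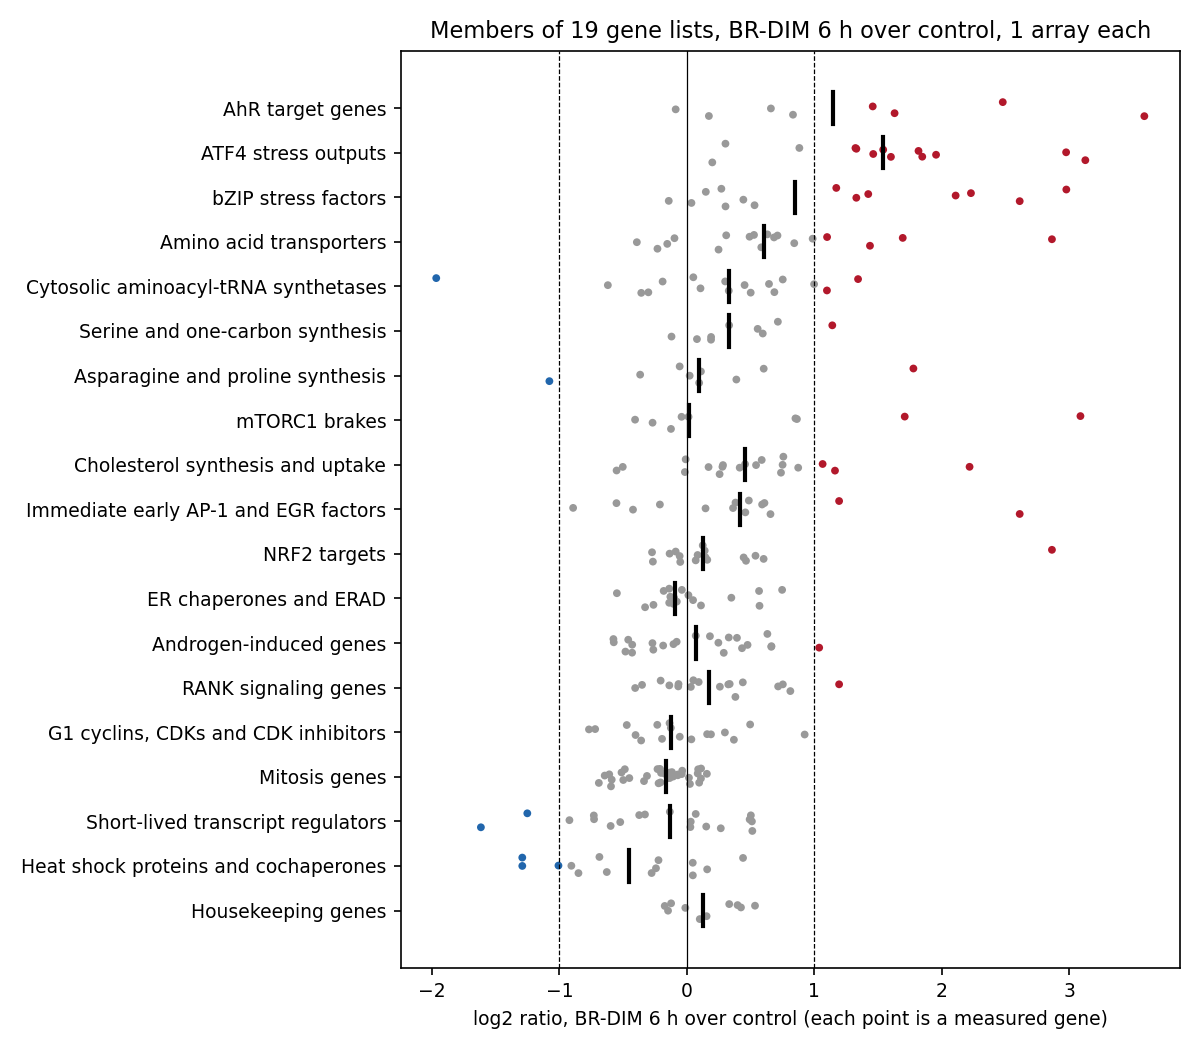
Each point is the log2 ratio of a measured gene, BR-DIM 6 h over control, 1 array each, in 19 of the gene lists, with the list's median as a black bar, at least 2-fold higher genes in red and at least 2-fold lower genes in blue. The medians of the AhR targets (1.15) and ATF4 stress outputs (1.54) lie past the dashed 2-fold line, and that of the heat shock proteins is -0.45. The lists were chosen with earlier results of these data known.

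DDIT4, the mTORC1 inhibitor REDD1, had BR-DIM signals of 5359 at 6 h and 2726 at 48 h, isoflavone signals of 182 at 6 h and 3347 at 72 h, and 629.7 in control (log2 ratio 3.09). DDIT4 had the third largest rise in this comparison, was highest on BR-DIM 6 h, and lay below control on isoflavone 6 h. SESN2, a sestrin that holds mTORC1 down when leucine is scarce, had 1904 on BR-DIM 6 h and 582 in control (1.71, and 1.70 by its second probe set). These were the 2 called genes of 9 mTORC1 brakes, and the list's median was 0.01. DEPTOR (0.85) and EIF4EBP1 (0.86), which restrain mTOR and translation initiation, were under 2-fold, and TSC2 was at 0.01. Of 19 genes of PI3 kinase and AKT signaling, 1 was higher and 2 were lower, with a median of 0.14. AKT1, the kinase below PI3 kinase, had BR-DIM signals of 927 at 6 h and 894 at 48 h, isoflavone signals of 1224 at 6 h and 1267 at 72 h, and 2149 in control (-1.21), and control was the highest array. RPTOR, the scaffold of mTORC1, had 153 on BR-DIM 6 h and 312 in control (-1.02). The forkhead factor FOXO4, which AKT holds outside the nucleus, had 252 on BR-DIM 6 h and 100.1 in control (1.33).

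Of 19 genes of cholesterol synthesis and uptake, 3 were at least 2-fold higher, none was lower, and the median was 0.46, with 15 above 0. INSIG1, the ER protein that retains the sterol sensor SCAP, had BR-DIM signals of 3402 at 6 h and 3017 at 48 h, isoflavone signals of 1206 at 6 h and 1483 at 72 h, and 731 in control (log2 ratio 2.22), and its other probe sets gave 1.51 and 1.03. All 3 probe sets were past 2-fold. HMGCS1, the cytosolic HMG-CoA synthase, had 1812 on BR-DIM 6 h and 809 in control (1.16). IDI1, isopentenyl-diphosphate isomerase, had 6666 on BR-DIM 6 h and 3184 in control (1.07), and a dimmer probe set gave -0.26. DHCR7, the last enzyme of the route (0.76), MVK, mevalonate kinase (0.75), and STARD4, a sterol carrier (0.74), were under 2-fold, and FDPS, farnesyl diphosphate synthase, was at -0.01. None of 12 genes of fatty acid synthesis was called, and their median was 0.19.

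Immediate early genes gave 2 higher genes of 14 measured, JUN and ATF3, with a list median of 0.42. JUN, an AP-1 subunit, had BR-DIM signals of 5897 at 6 h and 7142 at 48 h, isoflavone signals of 5544 at 6 h and 7379.5 at 72 h, and 2575 in control (1.20), with 1.32, 1.15 and 0.56 by its other probe sets. EGR1 (0.49, and -0.47 and 0.19 by its other probe sets) and MYC (0.46), a growth-factor-induced factor and a proto-oncogene, were within 2-fold. TSC22D3, the leucine zipper protein GILZ induced by glucocorticoids, had 1528 on BR-DIM 6 h and 522 in control (1.55, and 1.11 by the second probe set), the 1 called gene of 9 glucocorticoid-induced genes. FKBP5, a receptor cochaperone and a common marker of that response, was at 0.18. DUSP1 (0.98) and KLF9 (0.85) were higher by less than 2-fold. The median of these 9 genes was 0.50, with 7 above 0 and 2 below. Clock repressors BHLHE41 (303 on BR-DIM 6 h, with control below the floor) and NFIL3 (1726 on BR-DIM 6 h, 679 in control) were the 2 higher of 15 clock genes. VEGFA, the endothelial growth factor that hypoxia and ATF4 both induce, had 2599.7 on BR-DIM 6 h and 874 in control (1.57). It was the 1 higher gene of 23 glycolysis and hypoxia-inducible genes, whose median was 0.02, and PFKFB3, a glycolytic regulator, was the 1 lower gene (-1.03).

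Few genes of other stress lists passed 2-fold. None of 18 ER chaperones and degradation genes passed 2-fold, and their median was -0.09. HSPA5, the chaperone BiP, had BR-DIM signals of 7394 at 6 h and 9591 at 48 h, isoflavone signals of 11529 at 6 h and 15213 at 72 h, and 8138 in control (-0.14). The BR-DIM 6 h array was the lowest of the 5 for HSPA5 by this probe set. A dimmer probe set of HSPA5 had 381 on BR-DIM 6 h and 299.7 in control (0.35). Of 17 NRF2 targets, which respond to oxidants, SLC7A11 was the 1 called gene and the median was 0.13. HMOX1, heme oxygenase, had 311 on BR-DIM 6 h and 229 in control (0.45), and GCLM, a subunit of the glutathione-synthesizing enzyme, had 1029 on BR-DIM 6 h and 1244 in control (-0.27). Of 14 p53 targets, none was higher and PHLDA3, a repressor of AKT, was lower (-1.23, and -1.29 by its other probe set). The BCL2 family gave 1 higher gene of 14, the death activator HRK, with 407 on BR-DIM 6 h and 164 in control (1.31).

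Heat shock proteins and cochaperones were the list with the lowest median (-0.45) among those of the figure of gene lists, with 3 of 14 at least 2-fold lower, none higher and 10 below 0. DNAJA1, an HSP40 cochaperone of HSP70, had BR-DIM signals of 4894 at 6 h and 5907 at 48 h, isoflavone signals of 10083 at 6 h and 7960.1 at 72 h, and 11981 in control (-1.29, and -1.36 by its second probe set). The control was the highest array for DNAJA1 and BR-DIM 6 h the lowest. DNAJB1, another HSP40 protein and a target of HSF1, had BR-DIM signals of 1361 at 6 h and 1729 at 48 h, isoflavone signals of 3938 at 6 h and 1654 at 72 h, and 3331 in control (-1.29, and -1.52 by its second probe set). Isoflavone 6 h lay above control for DNAJB1, unlike the other treated arrays. CHORDC1, an HSP90 cochaperone, was at the threshold (-1.01), and its second probe set gave 0.51. HSPE1, the mitochondrial HSP10 (-0.85), STIP1, which links HSP70 and HSP90 (-0.69), and HSPH1, an HSP110 (-0.63), were lower by less than 2-fold. HSP90AA1, the inducible HSP90, was at 0.05 (-0.26 after quantile normalization), and HSPB1, the small heat shock protein HSP27, at 0.44.

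Of 23 androgen-induced genes 1 was called, and the median was 0.07, equal to that of all genes at this rounding. KLK3 had a log2 ratio of -0.57, and its other probe sets gave -0.24 and 0.18. KLK2, a related kallikrein, had 525 on BR-DIM 6 h and 707 in control (-0.43). TMPRSS2 was at -0.43 by its brightest probe set, but its other measured probe sets gave -0.28 and at least 1.12. The called gene was ACP3, prostatic acid phosphatase, with 199.5 on BR-DIM 6 h and control below the floor, a log2 ratio of at least 1.04. None of the 8 luminal markers passed 2-fold. KRT18, a luminal keratin, had 2939.8 on BR-DIM 6 h and 2738 in control, and FOLH1, the prostate-specific membrane antigen, had 591 on BR-DIM 6 h and 373 in control. None of 14 steroid receptors and prostate lineage factors was called.

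Genes of RANK signaling, the pathway by which RANK ligand drives osteoclast formation, gave 1 higher gene of 18, JUN, and a median of 0.18. TNFRSF11A, which encodes RANK, had 396 on BR-DIM 6 h and 292 in control (0.44). Of the regulators the study followed on these arrays, CCND1, cyclin D1, had 742 on BR-DIM 6 h and 1264 in control (-0.77, and -0.92 by its second probe set), and CDKN1B, the inhibitor p27, had 1782 on BR-DIM 6 h and 1379 in control (0.37). Both stayed within 2-fold. MITF, a factor of the melanocyte and osteoclast lineages, had 735 on BR-DIM 6 h and 809 in control (-0.14) by its brightest probe set, but 0.94 by another. CDK13, a transcription elongation kinase, had a log2 ratio of -0.48, and its 4 other measured probe sets ranged between -1.24 and 0.13. CREB1, the cAMP response factor, was at -0.41 by its brightest probe set, and its 6 other measured probe sets ranged between -0.37 and 0.41. LEF1, a Wnt factor, was at 0.19, but at -0.68 by its second probe set. STK4, a Hippo kinase, was at 0.04 (between -0.38 and 0.81 by its 3 others) and NR3C1, the glucocorticoid receptor, at 0.39. RUNX2, a bone lineage factor also expressed in prostate cancer cells, had 451 on BR-DIM 6 h and 314 in control (0.52). BMP2, a bone morphogenetic protein, was the 1 lower gene of 22 BMP, SMAD and ID genes, with 404 on BR-DIM 6 h and 890.3 in control (-1.14). Its second probe set gave -0.41, within 2-fold.

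No gene of the main growth lists passed 2-fold. None of 34 mitosis genes was called, their median was -0.16 and 26 lay below 0. The largest change among them was in ECT2, a cytokinesis factor (-0.69, but 0.09 and -0.01 by its other probe sets), followed by AURKA, a spindle kinase, at 4796 on BR-DIM 6 h and 7498 in control (-0.64, with -0.56 and -0.58 by its other probe sets). None of 37 DNA replication genes (median -0.09), 22 ribosome biogenesis genes (median -0.23) or 24 proteasome subunits (median -0.11) was called. Of all measured genes 2.86% were higher and 0.806% lower. At a geometric mean signal of 971 to 3884 the shares were 1.02% higher and 0.358% lower. Lists of these sizes with none called are close to those shares. The 22 cytosolic ribosomal proteins had a median of 0.39 with 21 above 0, but after quantile normalization their median was -0.04, so their direction depends on the scaling of bright signals. GAPDH, a glycolytic enzyme in the list of 10 housekeeping genes, had a log2 ratio of 0.54 (0.051 after quantile normalization), and none of that list passed 2-fold (median 0.13, and -0.004 after quantile normalization).

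Genes that decay fast included 2 at least 2-fold lower of 19. TXNIP, the thioredoxin-binding protein that restrains glucose uptake, had BR-DIM signals of 782 at 6 h and 1711 at 48 h, isoflavone signals of 1433 at 6 h and 5065 at 72 h, and 1864 in control (-1.25), and its other probe sets gave -1.84 and -1.98. Its signal on BR-DIM 6 h was the lowest of the 5 arrays and on isoflavone 72 h the highest. TOB2, an antiproliferative protein that binds the deadenylase complex, had 253 on BR-DIM 6 h and 776 in control (-1.62), and its second probe set gave -0.46. CITED2, a coactivator-binding protein, was at -0.92. Of 12 tubulins, TUBA4A was the 1 lower gene (-1.05) and the median was -0.30.

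The lists held 48 of the 372 higher genes and 15 of the 105 lower genes, so most of both sets lay outside them. Among the higher ones, IL12A, a subunit of interleukin 12, had BR-DIM signals of 456 at 6 h and 425 at 48 h, isoflavone signals of 65.0 at 6 h and 116 at 72 h, and control below the floor (log2 ratio at least 2.23). TSLP, a cytokine of epithelia, had 471 on BR-DIM 6 h and 129.5 in control (1.86), and S100P, a calcium-binding protein, had 733 on BR-DIM 6 h and 223 in control (1.72). IL12A was high on both BR-DIM arrays. TSLP had 800.0 on BR-DIM 48 h and isoflavone signals of 206 at 6 h and 342 at 72 h, so every treated array was above control. S100P was below the floor on BR-DIM 48 h and isoflavone 6 h. IFRD1, a transcriptional coregulator, had 2718 on BR-DIM 6 h and 845 in control (1.69), and all 3 of its probe sets were past 2-fold. NHSL1, a regulator of actin at the cell edge, had 2292 on BR-DIM 6 h and 712 in control (1.69), again with 3 probe sets past 2-fold. The rest of the 30 largest rises outside the lists had log2 ratios between 1.62 and 2.05: CNTLN, a centrosomal protein, PARAIL, CEP295, ARHGEF28, the orphan receptor NR2E1, TEX19 and TMEM187. CEP295, a centriole protein, disagreed with its own other probe sets, at 1.78 against -0.51, -0.53 and -0.66. The 4 other measured probe sets of ARHGEF28 ranged between -0.71 and 0.94, and the 3 others of CNTLN between -0.41 and 0.80.

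Of the largest falls, SHPK, sedoheptulokinase, had 80.1 on BR-DIM 6 h, below the floor, and 448 in control, a log2 ratio of -2.21 or less. MATR3, a nuclear matrix protein, had 160.0 on BR-DIM 6 h and 562 in control (-1.81). GAS1, a membrane protein linked to growth arrest, had 696 on BR-DIM 6 h and 1748 in control (-1.33, and -1.59 by its second probe set). UGDH, which makes UDP-glucuronate, had 621 on BR-DIM 6 h and 1488 in control (-1.26). Among the rest of the 20 largest falls were B4GALT2, a galactosyltransferase (-1.55), LIN7C, a scaffold (-1.39, but -0.03 and -0.27 by others), NACC2 (-1.37), TMEM127 (-1.32), the homeobox factor IRX3 (-1.32), CROT, a peroxisomal carnitine acyltransferase (-1.23), and the nuclear receptor coactivator PNRC1 (-1.19). For RXRA, the retinoid X receptor, the brightest probe set gave -1.32 and the other 0.13, and for ATF7IP2 they gave -1.22 and 1.01.

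The one repeat measurement within these arrays is a second probe set of the same gene on the same RNA. Of the 372 higher genes, 151 had a second measured probe set, which was above 0 in 121 (80.1%) and itself at least 2-fold higher in 30 (19.9%). Over all 6656 genes with such a pair, the second probe set was above 0 in 51.6% and at least 2-fold higher in 2.42%. Of the 105 lower genes, 44 had a second probe set, which was below 0 in 32 (72.7%) and at least 2-fold lower in 10 (22.7%), against 48.3% and 1.92% over all genes. Among the higher genes past 2-fold by both probe sets were ATF3, SLC7A11, CYP1B1, INSIG1, CTH, CARS1, SESN2, CEBPG and STC2, and among the lower ones TXNIP, DNAJA1, DNAJB1, PHLDA3 and GAS1. The brightest and second probe sets share the labelled RNA of 1 culture, so their agreement bears on the probes and not on the treatment.

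**Figure D4:**
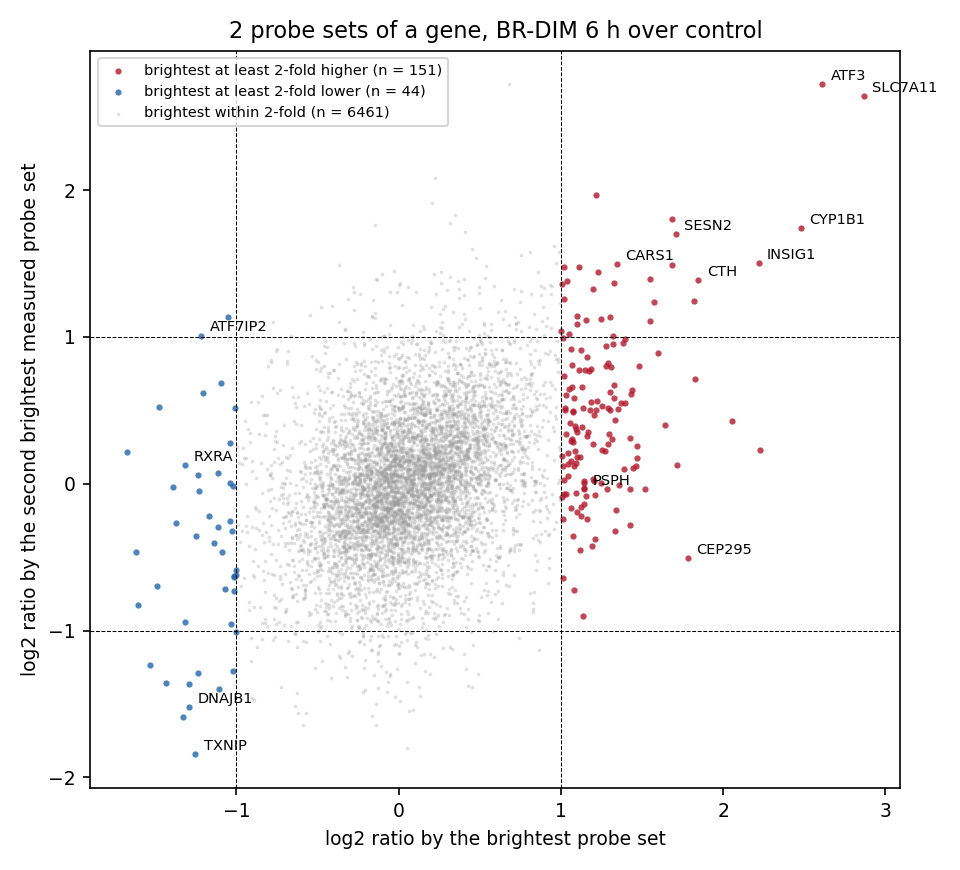
Each point is a gene with its log2 ratio, BR-DIM 6 h over control, by its brightest probe set (horizontal axis) and by its second brightest measured probe set (vertical axis), over 6656 genes. The second probe set was above 0 for 121 of 151 higher genes (red) and below 0 for 32 of 44 lower genes (blue), and CEP295 and ATF7IP2 lie on opposite sides.

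The 6 h signals of the called genes were also set beside the later BR-DIM array and the other compound at the same time. These genes were chosen by their 6 h signal, so the counts are descriptions. On BR-DIM 48 h, 74 of the 372 higher genes (19.9%) were at least 2-fold below their level on BR-DIM 6 h, against 3.74% of all genes, and 6 (1.61%) were at least 2-fold above it, against 1.83%. Their median log2 ratio of BR-DIM 48 h over BR-DIM 6 h was -0.27. CYP1A1, NUPR1 and GDF15 were among those lower on BR-DIM 48 h, whereas ATF3, CYP1B1, ATF4 and ASNS had more signal there than on BR-DIM 6 h. BR-DIM 6 h exceeded isoflavone 6 h by at least 2-fold in 192 of the 372 genes (51.6%), against 7.01% of all genes. BR-DIM 6 h was the highest of the 4 treated arrays in 203 of the 372 higher genes (54.6%) and in 25.9% of all measured genes, and it was the lowest of the 4 in 76 of the 105 lower genes (72.4%) and in 17.2% of all measured genes. BR-DIM 48 h and isoflavone 6 h are the arrays low in luminal markers, and the part of that in these counts was not tested.

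The threshold of 2-fold has genes close on either side. Just inside it among higher genes were SH3BP1, DZANK1 and FRMD3, with BR-DIM 6 h signals of 194, 259.9 and 242. Just outside it were YPEL2, PXDC1 and NR4A1, with 890.5, 494 and 414 on BR-DIM 6 h, and YPEL2 had 445 in control. Among lower genes TBC1D13, RBM14 and DYNLL2 were just inside, at 307, 935 and 599.6 on BR-DIM 6 h, and CENPX, MYLK2 and TSFM were just outside.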

How the data were processed

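The authors measured RNA of C4-2B cells on Affymetrix arrays, 1 per condition, and deposited 1 linear intensity per probe set made with MAS5, already scaled (trimmed means 498.1 to 498.4). The version, scaling target and detection calls are not given in the sources used here. Deposited values were used as they stand, with Python 3.11.15, numpy 2.4.6, pandas 2.3.3, scipy 1.17.1 and matplotlib 3.10.9. Of 54613 probe sets, 41091 carry 1 gene symbol, 1801 carry several and 11721 are not in the gene table used, and the last kinds entered no gene. By Entrez ID, 41037 matched RefSeq.

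The brightest probe set by mean over the 5 arrays stood for its gene. The median of all signals, 97.1, served as floor for lower signals, and a change of 2-fold or more was counted. Scaling bears directly on a ratio of 2 arrays, and MAS5 signals near the floor are imprecise. With 1 array per condition no test was made and no precision can be given.

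The comparison, the 62 gene lists and the rules were chosen with earlier results of these data known. Named were the 30 largest rises and 20 largest falls whose brighter signal was at least 4 times the floor, up to 6 called members of each list (the 2 with the largest change where none was called), and the genes the study followed, 146 in all. A further 62 were named after their values were seen, as were those next to the threshold. The alternatives were 8 other choices of scaling, floor or probe set, and rules of 1.5-fold and 3-fold. List genes without a probe set of their own are not analysed here.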

Additional observations from a re-analysis of the deposited data

Results flagged for a closer look

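Probe sets outside the gene table entered no result on genes, and some of them carried signal differences. Of 11721 such probe sets, 4311 were measured on the BR-DIM 6 h and control arrays, 114 had at least 2-fold more signal on BR-DIM 6 h (2.64%) and 87 at least 2-fold less (2.02%), of which 23 and 20 had a brighter signal, of these 2 arrays, of at least 388.4. The share that was higher is close to the 2.86% of all measured genes, and the share that was lower is above their 0.806%. Each of those genes is represented by its brightest probe set, whereas every probe set outside the table was counted. The shares are therefore of unlike kinds, and the cause of the difference was not tested. The probe set with the largest rise had BR-DIM signals of 622 at 6 h and 347 at 48 h, isoflavone signals of 343 at 6 h and 458 at 72 h, and 97.6 in control, a log2 ratio of 2.67. These probe sets are unnamed here, which does not mean that they lack a gene.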

How the results depend on the processing

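The counts of 372 higher and 105 lower genes depended most on the floor, the probe set and the threshold. Higher genes numbered 1034 with no floor, 80 with a floor of 471.7, 229 with the floor as a pseudocount, 169 with probe sets averaged, 160 by the second brightest probe set, 1616 at 1.5-fold and 35 at 3-fold. The second brightest probe set left 6682 genes measured, against 13020, and 128 were lower there. Lower genes numbered 318 with no floor, 29 with the higher floor, 65 with probe sets averaged, 671 at 1.5-fold and 9 at 3-fold. Quantile normalization gave 297 and 132, of which 294 and 104 were shared, and higher genes made up 69.2% of calls, against 78.0% as reported, 75.8% with median scaling and 55.6% by the second brightest probe set. Of 88 called genes named here, 87 stayed past 2-fold after quantile normalization, 88 after median scaling, 71 with the pseudocount, 52 with probe sets averaged, 57 of 64 without probe sets ending in _s_at or _x_at, and 20 of 46 by the second brightest, where 6 changed sign. Where 1 of the 2 values was past 2-fold, signs changed by the second brightest probe set in CEP295 (-0.51), RXRA (0.13), ATF7IP2 (1.01), PSPH (-0.037), CHORDC1 (0.51), CDT1 (1.10) and ST14 (0.057), and without the _s_at and _x_at probe sets in CHORDC1 (0.51) and IDI1 (-0.26). A further 17 and 5 named genes changed sign under these choices with both values under 2-fold, among them MITF, CREB1 and ECT2 by the second brightest. The cause of these differences was not tested. No paired analysis was possible because each condition has 1 array, and for the same reason no replicate could be left out. Signals near the floor limit what can be seen of dim genes such as CYP1A2.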

Other observations

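Some gene groups outside the accounts above also held called genes. Over all measured genes 2.86% were higher and 0.806% lower. At a geometric mean signal of 97.1 to 194.2 the shares were 5.73% and 1.42%. A list with 1 called gene is therefore not read as a result about that list. Of 9 estrogen-responsive genes, 3 passed 2-fold upward on BR-DIM 6 h, and the median log2 ratio was 0.63. Besides STC2 and XBP1 they included AGR2, a disulfide isomerase of secretory epithelia, with 379 on BR-DIM 6 h and 154.5 in control (log2 ratio 1.30). DUSP16, a phosphatase of JNK, had 1316 on BR-DIM 6 h and 605 in control (1.12) and was the 1 called gene of 11 MAP kinase phosphatases and Sprouty genes. PDE4D, a cAMP phosphodiesterase, had 533 on BR-DIM 6 h and 252 in control (1.08), the 1 called gene of 14 CREB family and coactivator genes. HDAC5, a class II histone deacetylase, had 549 on BR-DIM 6 h and 256 in control (1.10), the 1 called gene of 20 chromatin modifiers. IFI44L was the 1 called gene of 12 interferon-induced genes, with 333 on BR-DIM 6 h and 117.5 in control (1.503), and ISG15 was within 2-fold. MT1E, a metallothionein, had 121 on BR-DIM 6 h and 287 in control (-1.25), and its second probe set gave -0.35.

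DNA repair and checkpoint genes had no called member, but 16 of 19 lay above 0 and the median was 0.21. XRCC2 and RAD54L, both of homologous recombination, had the largest log2 ratios of that list, 0.89 and 0.85. Of 62 lists, 29 had measured members with none past 2-fold, with medians between -0.23 and 0.53, and the prostate basal markers were not measured on either array.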
